A study of Bos taurus with 16 samples.

Results

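Genes whose transcripts were less abundant in LPS treated than in unstimulated cultures of nearly every animal were followed in bovine monocyte-derived macrophages (MDMs). Transcript levels were read as x, the log2 of CPM (the count of a gene scaled to a common library total) plus 0.5, and d is x in the LPS treated library minus x in the unstimulated library of the same animal. A gene was taken when d was below 0 in at least 7 of the 8 animals and the mean d over the 8 animals was at most -1. Of 12968 genes that reached 1 CPM in 4 or more of the 16 libraries, 354 genes (2.73%) met both conditions, and they are called the lowered genes. They were selected on their measured values under LPS, so their loss is described here without a test.

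MDMs are macrophages grown in culture from blood monocytes, and here they came from 4 Taurine animals (numbered 1, 3, 20 and 50 in the labels) and 4 Indicine animals (numbered 2, 5, 6 and 7). The study names the breeds Holstein for the former and Gir for the latter and gives the age of its animals as 6 to 12 months. Mononuclear cells of each animal were cultured for 11 days in medium with fetal bovine serum and washed to remove cells that did not adhere, and they were then either kept in medium alone (unstimulated, also called rest here) or given 100 ng/ml LPS for 48 h. This gave 1 library of polyadenylated RNA per animal and stimulus, and no sorting of cells is described. All 16 libraries thus come from primary cultures that share this medium and adherence step, and an animal is the replicate.

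LPS, which Gram-negative bacteria carry on their surface, is sensed on macrophages by TLR4 with its partners CD14 and MD-2, and the signal runs through MyD88 and TRIF to NF-κB and interferon regulatory factors. Besides inducing cytokines and interferon-stimulated genes, such stimulation is known to lower many transcripts of resting macrophages, among them genes of lipid handling, scavenger receptors and the cell cycle, by repression of transcription and by decay of the RNA. The deposited files list genes by Ensembl identifier alone, and the reference table at hand matched 0 of the 27607 identifiers. For that reason no symbol, function, position or sequence is given for the lowered genes. The labelled cell type could not be checked against its markers, and the lowered genes could not be divided by function.

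The libraries held between 7362247 and 10296054 counts on genes, so that 1 CPM corresponded to between 7.36 and 10.3 counts. Over all 12968 genes the median of d lay between -0.31 and -0.07 in the 8 animals, with a mean of -0.17, so the losses below start from this shift. With TMM scaling the mean shift was -0.03, and 257 of the 354 genes still met the rule. Over all genes, the unstimulated libraries of Indicine animals 5 and 6 and Taurine animal 3 stood apart from the other 5 (values below). Every d of these 3 animals rests on those libraries, and what sets them apart was not tested. Some of the results that depend on them are also given without them, a choice made after these values had been seen. In bulk RNA of a culture, fewer cells of a type and less RNA per cell cannot be told apart.

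The lowered genes held between 1.25% and 3.27% of the gene counts of the unstimulated libraries and between 0.473% and 0.983% of those of the LPS treated libraries. In Indicine animal 2 this share went from 2.59% at rest to 0.775% after LPS. In Indicine animal 7 it went from 1.68% to 0.546%, and in Indicine animal 5 from 1.32% to 0.478%. Indicine animal 6 had the smallest relative difference, with 1.27% at rest and 0.764% after LPS, a ratio of 0.601. Among Taurine animals the share went from 1.25% to 0.473% in animal 1, from 3.27% to 0.983% in animal 3, from 1.96% to 0.732% in animal 20 and from 2.75% to 0.727% in animal 50. Each unstimulated library therefore held a larger share than any of the 8 LPS treated libraries, a pattern that the selection itself favours. The mean share at rest was 2.31% ± 0.889 (SD, n = 4) in Taurine and 1.71% ± 0.609 (SD, n = 4) in Indicine MDMs.

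**Figure D1:**
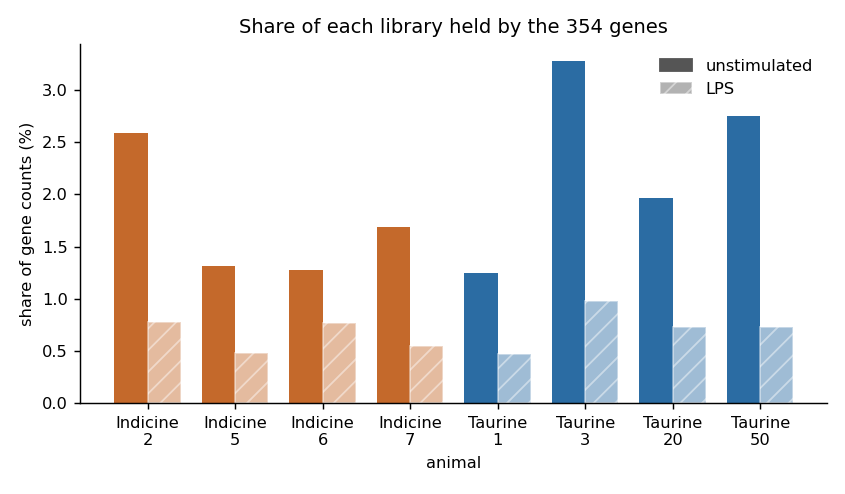
Share of all gene counts (%) held by the 354 lowered genes in each library, with solid bars for unstimulated and hatched bars for LPS treated MDMs of each animal, Indicine in orange and Taurine in blue. The 8 unstimulated libraries lie between 1.25% and 3.27% and the 8 LPS treated libraries between 0.473% and 0.983%.

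The size of the loss differed between animals much more than the rule required. The median d over the lowered genes was -1.87 in Indicine animal 2, -1.01 in animal 5, -0.63 in animal 6 and -1.58 in animal 7. In Taurine animals it was -1.28 in animal 1, -0.84 in animal 3, -1.44 in animal 20 and -1.88 in animal 50. Relative to the median of all genes in the same animal, these values lay between -1.67 (animal 2) and -0.47 (animal 6). Animals 2 and 50 thus had the largest median losses, 1 in each breed, and animals 6 and 3 had the smallest, again 1 in each breed. A d of at most -1 was reached by 313 of the 354 genes in animal 50, 285 in animal 7, 281 in animal 2, 277 in animal 20, 243 in animal 1, 177 in animal 5, 160 in animal 3 and 85 in animal 6. Over all genes, between 3.25% (animal 6) and 14.8% (animal 50) had a d of at most -1.

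Only 197 of the 354 lowered genes had a d below 0 in all 8 animals, and the other 157 had 1 animal at 0 or above. Taurine animal 3 was that exception for 87 genes, Indicine animal 6 for 29 and Indicine animal 5 for 21. Animals 2, 1, 20 and 50 were the exception for 9, 8, 2 and 1 genes, and animal 7 for 0. Just 9 genes had a d of at most -1 in every animal. The median SD of d over the 8 animals was 0.88 for the lowered genes and 0.36 for all genes, both on the log2 scale.

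**Figure D2:**
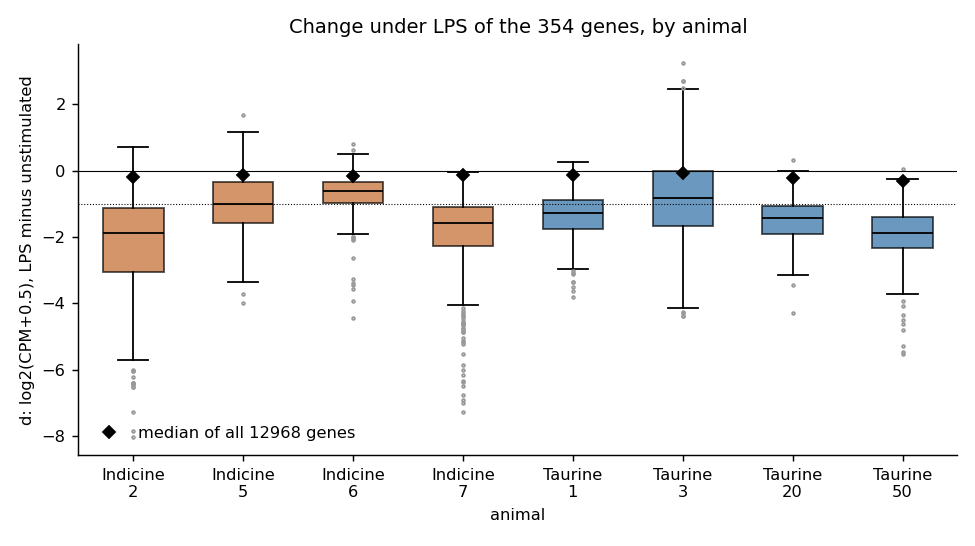
Values of d for the 354 lowered genes in each animal (log2 scale), where boxes span the quartiles with the median as a line, whiskers reach 1.5 times the box height, dots are genes beyond them and diamonds are the medians of all 12968 genes. The box medians lie between -1.88 (animal 50) and -0.63 (animal 6), and the box of Taurine animal 3 reaches up to about 0.

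The mean d of the lowered genes had a median of -1.34, a 2.54-fold lower value on the CPM plus 0.5 scale, with quartiles of -1.61 and -1.13. At most -1.5 was the mean d of 121 genes, and at most -2 that of 45 genes. The pseudocount of 0.5 CPM makes the change of genes near 1 CPM look smaller than it was. The selection had no gap at its threshold. Inside it, the 3 nearest lowered genes had a mean d of -1.006, -1.005 and -1.003, and outside it the 3 nearest genes with 7 or 8 animals below 0 had -0.9997, -0.999 and -0.995. A further 321 genes had a mean d of at most -1 but fewer than 7 animals below 0. With a pseudocount of 2 CPM the rule left 194 of the lowered genes and added 0.

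The most negative mean d belonged to ENSBTAG00000034373, which was read at 45.2 and 39.9 CPM in unstimulated MDMs of Indicine animals 2 and 7 but at 0.249 and 0.407 CPM in those of animals 5 and 6. In unstimulated Taurine MDMs it was read at 13.7 CPM in animal 1, 21.5 in animal 20, 12.6 in animal 50 and 0 in animal 3. After LPS it was at 0.111 CPM in animal 2 and 0 in animals 5, 6 and 7, and at 0.514, 0.258, 3.75 and 0.971 CPM in Taurine animals 1, 3, 20 and 50. The gene was thus nearly undetected at rest in 3 animals, and its mean d of -2.84 ± 2.56 (SD, n = 8) came from the other 5, with animal 3 on the positive side at 0.60.

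ENSBTAG00000000604 had almost the same mean d, -2.82 ± 1.27 (SD, n = 8), but a different pattern. At rest it was read at 209, 945, 143 and 322 CPM in Indicine animals 2, 5, 6 and 7 and at 7.64, 946, 19.1 and 70.3 CPM in Taurine animals 1, 3, 20 and 50. After LPS the values were 77.9, 108, 53.5 and 60.4 CPM in the same Indicine and 1.80, 53.2, 1.29 and 2.04 CPM in the same Taurine animals. Every animal therefore lay lower after LPS, with d between -4.80 and -1.40, although resting levels spanned more than the loss. This gene is among the 9 with a d of at most -1 in every animal.

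Among the 10 lowered genes with the most negative mean d, 8, with ENSBTAG00000034373 among them, belonged to a set defined below that was by its median low at rest in animals 3, 5 and 6. The gene in eighth place by loss was read at 585, 4.48, 7.47 and 252 CPM at rest in Indicine animals 2, 5, 6 and 7 and at 502, 7.26, 679 and 656 CPM in Taurine animals 1, 3, 20 and 50. After LPS it was at 1.78, 4.14, 5.05 and 1.86 CPM in Indicine and at 135, 25.7, 231 and 119 CPM in Taurine animals, so its d ran from -8.01 in animal 2 to 1.75 in animal 3. The gene in sixth place instead had a d between -3.73 and -1.49 in the 8 animals, from resting values between 1.71 and 23.7 CPM. The 10 genes together had mean d values between -2.84 and -2.43.

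By median, the lowered genes were expressed at rest below the level of all genes. Their resting level, the mean of x over the 8 unstimulated libraries, had a median of 3.05 with quartiles of 1.97 and 4.81, against a median of 4.29 with quartiles of 2.57 and 5.71 for all genes. On the linear scale the median of the mean resting CPM was 13.2 for the lowered and 20.7 for all genes. The order depends on which genes the pseudocount admits: the 194 genes chosen with a pseudocount of 2 CPM had a median resting level of 4.55 on that scale, against 4.41 for all genes. After LPS the median of the mean x was 1.58 for the lowered genes and 4.12 for all genes. By mean resting CPM, 151 lowered genes lay from 1 to below 10 CPM (3.84% of the genes there), 160 from 10 to below 100 CPM (2.31%), 42 from 100 to below 1000 CPM (2.53%) and 1 at 1000 CPM or more (1.18%). Of the genes with a mean under 1 CPM at rest, 0 were lowered genes.

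The 5 lowered genes with the highest mean resting CPM held 26.6% of the summed resting CPM of all 354. The highest was read at 3319, 1821, 3182 and 1695 CPM at rest in Indicine animals 2, 5, 6 and 7 and at 427, 3685, 2642 and 1304 CPM in Taurine animals 1, 3, 20 and 50. After LPS it was at 1736, 593, 1992 and 838 CPM in Indicine and at 62.9, 1149, 913 and 99.3 CPM in Taurine animals. It lay lower after LPS in each animal, with a mean d of -1.74 ± 1.02 (SD, n = 8), and its groups at rest and after LPS overlapped because the animals differed so widely. The second highest had resting values between 7.88 CPM in Taurine animal 3 and 3327 CPM in Taurine animal 50, and a mean d of -2.17 ± 2.50 (SD, n = 8). The next 3 in this order had mean d values of -1.17, -1.47 and -2.35.

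**Figure D3:**
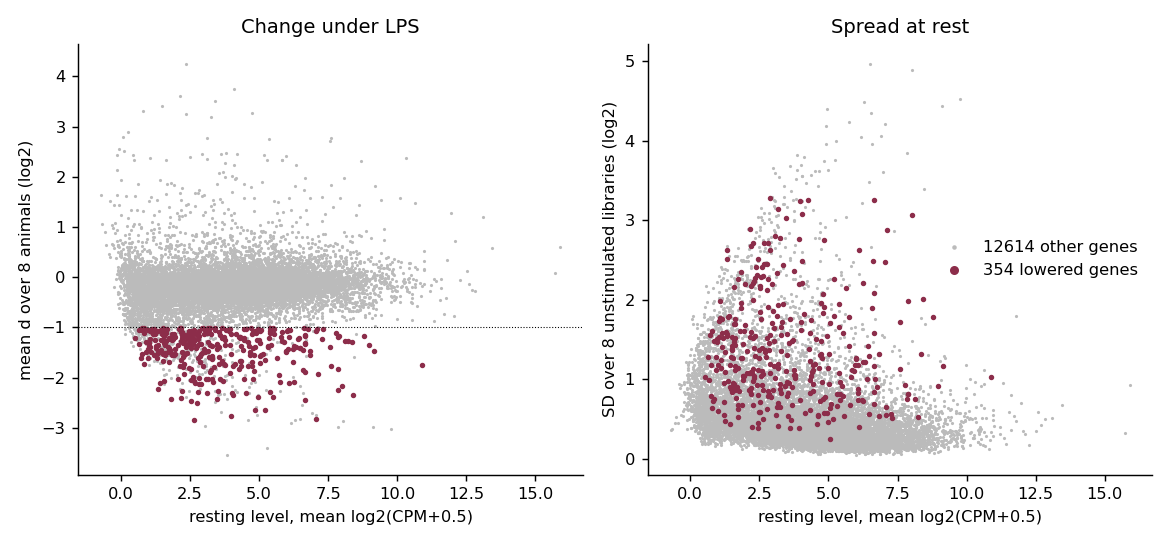
Each dot is a gene, with the 354 lowered genes in dark red and the 12614 other genes in grey, placed by resting level (mean log2(CPM+0.5) of the 8 unstimulated libraries). The left panel plots the mean d over 8 animals, with the dotted line at the threshold of -1, and the right panel plots the SD over the unstimulated libraries. In the right panel the lowered genes lie above the bulk of the grey dots, with a median SD of 1.19 against 0.40 for all genes.

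Unstimulated MDMs of different animals differed more in the lowered genes than in most other genes. The SD of x over the 8 unstimulated libraries had a median of 1.19 (quartiles 0.86 and 1.71) for the lowered genes and of 0.40 (quartiles 0.26 and 0.65) for all genes. An SD above 1 was found for 230 of the 354 lowered genes (65.0%) and for 12.3% of all genes. For the median lowered gene, the highest unstimulated library lay 11.0-fold above the lowest on the CPM plus 0.5 scale, and for the median of all genes 2.23-fold. Most of this spread lay within the breeds, where the median SD was 1.16 for the lowered genes and 0.37 for all genes. The larger spread also held at like levels: between 10 and 100 CPM the median SD was 1.32 for lowered genes and 0.33 for all genes, and between 1 and 10 CPM it was 1.12 and 0.56. Without animals 3, 5 and 6 the median SD at rest was 0.79 for the 354 genes and 0.36 for all genes. These values are a description, since the rule used the resting libraries too.

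The SD between animals on the log2 scale was smaller after LPS for most lowered genes, many of which were then near the floor of the pseudocount. The median SD over the 8 LPS treated libraries was 0.92, with a median of 0.71 within breeds. Both stayed above the values of all genes, 0.41 and 0.37 within breeds. A smaller SD after LPS than at rest was found for 267 of the 354 genes (75.4%), against 47.1% of all genes. This did not hold for a set of 26 genes, the most abundant of 3 sets formed below, whose median SD was 0.89 at rest and 0.93 after LPS, while it was 1.51 and 0.93 for the 176 and 1.00 and 0.89 for the 152 genes. At 1 CPM or more in every unstimulated library were 210 of the lowered genes (59.3%, against 82.5% of all genes), and at 1 CPM or more in every LPS treated library were 150 (42.4%, against 81.1% of all genes). In 77 lowered genes at least 1 LPS treated library had no count, and in 34 at least 1 unstimulated library had none. Such values are limited by depth, and a d near the floor is smaller than the ratio of abundances.

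The spread at rest had a main direction that was not that of the breeds. In a principal component analysis of the lowered genes over the 8 unstimulated libraries, centred for each gene, the first component took 56.8% of the variance. It placed Indicine animals 5 (-0.43) and 6 (-0.42) and Taurine animal 3 (-0.49) on one side, and Taurine animals 50 (0.40), 20 (0.33) and 1 (0.26) and Indicine animals 2 (0.22) and 7 (0.12) on the other. The same analysis over all 12968 genes gave a first component with 46.6% of the variance and nearly the same weights, -0.45, -0.39 and -0.48 for animals 5, 6 and 3 and between 0.05 and 0.42 for the other 5. The direction was thus one of the whole transcriptome at rest and not particular to the lowered genes. No label separates these 3 animals from the other 5.

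By their correlation with this component over the 8 unstimulated libraries, the lowered genes were divided, after these values had been seen and as a description only, into 176 genes with r above 0.5, 26 genes with r below -0.5 and 152 genes between. The 176 genes had a median of 1.36 to 1.72 CPM in unstimulated MDMs of animals 3, 5 and 6, with between 69 and 76 of the genes under 1 CPM in each. In unstimulated MDMs of the other 5 animals their median lay between 7.86 CPM (animal 7) and 17.8 CPM (animal 50), with between 0 and 4 genes under 1 CPM. The median d of the 176 genes was -2.90 in animal 2, -2.10 in animal 7, -1.54 in animal 1, -1.58 in animal 20 and -1.94 in animal 50. In animals 5 and 6 it was -0.59 and -0.52, and in animal 3 it was -0.06, with 84 of the 176 genes at or above 0. The median of all genes was -0.12, -0.16 and -0.07 in animals 5, 6 and 3. In animals 5 and 6 the median of the set still lay lower after LPS, at 0.783 against 1.62 CPM and at 0.664 against 1.36 CPM, while in animal 3 it differed little, at 1.49 against 1.72 CPM.

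The levels of the 176 genes after LPS are given as a description, since the rule used these libraries. It allows 1 animal at 0 or above, which was animal 3 for 84 of the 176 genes, animal 6 for 16 and animal 5 for 15. In most of them the value after LPS thus had to lie under an already low resting value in Indicine animals 5 and 6, but for 84 not in Taurine animal 3. In the 4 Indicine animals their median lay between 0.664 and 0.783 CPM, with between 98 and 103 of them under 1 CPM. This held whether the unstimulated culture was high (animals 2 and 7) or low (animals 5 and 6). In Taurine animals 1, 20 and 50 the median was 3.47, 3.99 and 4.76 CPM, with 34, 22 and 25 genes under 1 CPM. In Taurine animal 3 it was 1.49 CPM with 67 genes under 1 CPM, against 1.72 CPM at rest. Their summed share of the gene counts after LPS lay between 0.0679% and 0.0775% in Indicine and between 0.113% and 0.367% in Taurine animals.

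The 152 genes between had a more even loss. Their median d was -1.32, -1.40, -0.72 and -1.19 in Indicine animals 2, 5, 6 and 7 and -1.04, -1.51, -1.22 and -1.79 in Taurine animals 1, 3, 20 and 50. Of these, 113 (74.3%) had a d below 0 in all 8 animals, as had 24 of the 26 genes with r below -0.5 and 60 of the 176 (34.1%). The 26 genes were the most abundant of the 3 sets, with a median resting level of 5.95 against 3.30 for the 152 and 2.64 for the 176 genes. Their median at rest was 109 CPM in animal 3, between 50.3 and 63.4 CPM in the 4 Indicine animals and between 23.4 and 26.1 CPM in animals 1, 20 and 50, and their median d lay between -1.71 and -0.74.

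**Figure D4:**
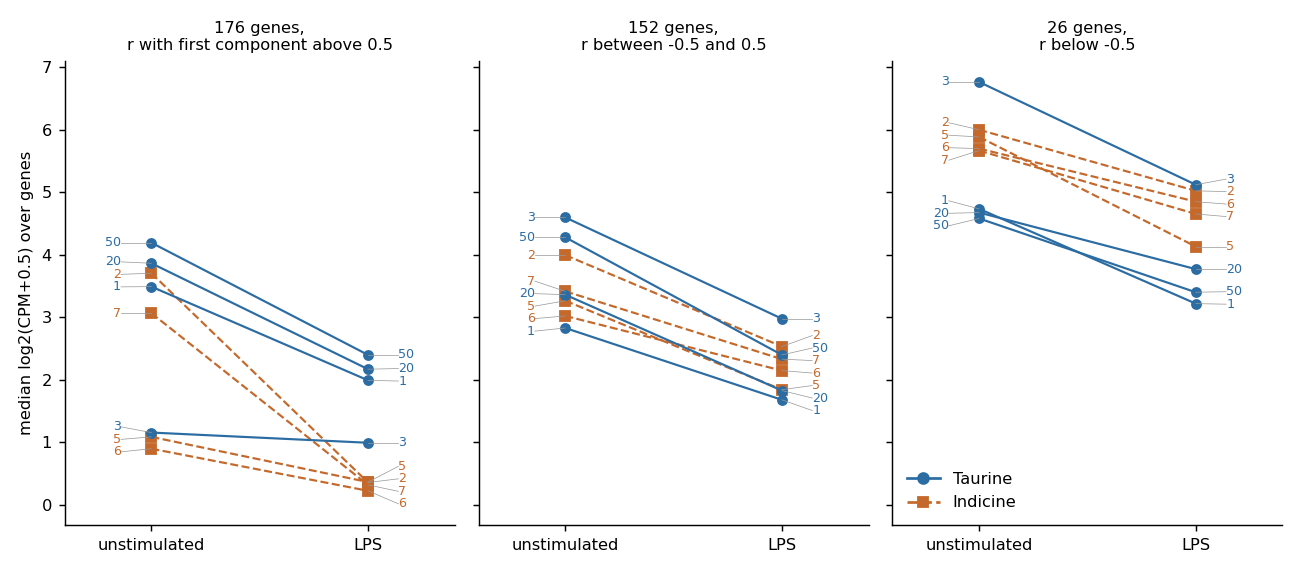
Median log2(CPM+0.5) over the genes of each set in the unstimulated and LPS treated library of every animal, for the 176, 152 and 26 lowered genes divided by their correlation r with the first component at rest. Lines join the libraries of 1 animal, labelled with its number. In the left panel animals 3, 5 and 6 start near 1 while the other 5 start between 3.06 and 4.19, and after LPS the 4 Indicine animals lie together between 0.22 and 0.36, under all 4 Taurine animals.

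The rule was also applied with each animal left out in turn, asking for at least 6 of 7 animals below 0, and the left-out animal was then read. Genes chosen without animal 2 had a median d of -1.63 in animal 2, those chosen without animal 7 had -1.45 in animal 7, and those chosen without animals 1, 20 or 50 had -1.18, -1.36 and -1.78 in that animal. Between 93.8% and 98.5% of these genes were below 0 in the animal not used, where between 61.6% and 75.4% of all genes were. Without animal 6, 460 genes were chosen and their median d in animal 6 was -0.45, with 77.4% below 0, against 68.8% of all genes, and 17.0% at most -1, against 3.25% of all genes. Without animal 5, 612 genes were chosen, with a median d in animal 5 of -0.09 and 54.4% below 0, against 60.8% of all genes. Without animal 3, 650 genes were chosen, with a median d in animal 3 of 0.21 and 40.6% below 0, against 56.9% of all genes. The medians cover a mixture, since a d of at most -1 was found for 154 of the 612 genes in animal 5 (25.2%, against 4.45% of all genes) and for 135 of the 650 in animal 3 (20.8%, against 3.95%). The loss in the other animals was thus seen in part of the genes in animals 3 and 5. Of the 354 lowered genes, 329 and 331 were among the genes chosen without animals 3 and 5, respectively. A lowered gene always meets the sign condition with an animal left out, so these overlaps are no support for the list. Without all of animals 3, 5 and 6, and with at least 4 of 5 animals below 0, the rule gave 1053 genes, 327 of the lowered genes among them. Every lowered gene meets this sign condition too. The 354 lowered genes had a median of the mean d of -1.59 over the other 5 animals and of -0.85 over animals 3, 5 and 6.

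Chosen in 1 breed alone, with 4 of 4 animals below 0, a mean d of at most -1 and 2 or more of its 8 libraries at 1 CPM or above, the list held 318 genes in Indicine and 383 genes in Taurine MDMs. Of these, 316 and 371 were among the 12968 genes and were read in the other breed, and the medians and shares there refer to them. The Indicine list held 248 of the lowered genes, which is 70.1% of the lowered genes and 78.0% of the list. Its genes had a median d of -1.12 in Taurine animal 1, -0.56 in animal 3, -1.26 in animal 20 and -1.57 in animal 50, and 59.2% were below 0 in all 4 Taurine animals, against 32.2% of all genes. The Taurine list held 235 of the lowered genes, which is 66.4% of the lowered genes and 61.4% of the list. Its genes had a median d of -1.15, -0.79, -0.49 and -1.10 in Indicine animals 2, 5, 6 and 7, and 59.3% were below 0 in all 4, against 25.5% of all genes. The median d of all genes was also below 0 in every animal, between -0.31 and -0.07. Genes chosen in either breed lay further below 0, by median, than all genes in every animal of the other breed.

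Whether the lowered genes differed between Taurine and Indicine MDMs was tested at rest, after LPS and for the response, with edgeR's quasi-likelihood test over all genes and Benjamini-Hochberg adjustment. Called were genes whose adjusted p (FDR) was under 0.05 and whose log2 fold change was 1 or more in either direction. The rule used the unstimulated libraries too, so the counts at rest are no independent test of the lowered genes as a list. At rest, 0 of the 351 lowered genes tested were called, and 40 of 12565 genes were called over the whole table (0.318%). The lowest adjusted p of a lowered gene in this test was 0.0711. An unadjusted p under 0.05 was found for 48 lowered genes (13.7%), 33 of them higher in Taurine, against 11.7% of all genes. DESeq2 called 17 of 354 lowered genes at rest (4.80%, against 1.73% of 19222 genes with any count) and edgeR's exact test called 11 of 351 (3.13%, against 1.73% of 12565 genes). The set behind the DESeq2 share is wider than the filtered genes from which the lowered genes came. Without animals 3, 5 and 6, edgeR's quasi-likelihood test called 0 of 353, against 0.061% of all genes. An unadjusted p under 0.05 was then found for 80 of the 353 (22.7%), against 8.1% of all genes. That fit compares 3 Taurine with 2 Indicine animals that were kept for their resting values. Its counts at rest are therefore no independent test. The 1 model over all 16 libraries called 3 of 354 at rest (0.848%), a share below the 1.16% of all genes. Without animal 5 and without animal 50, 1 lowered gene was called each time (0.283% and 0.284%, against 0.202% and 0.189% of all genes). The 4 Taurine values lay apart from the 4 Indicine values at rest for 19 of the 354 lowered genes (5.37%), against 7.86% of all 12968 genes.

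After LPS, part of the lowered genes were called between the breeds. The rule used the same LPS treated libraries, so these counts are no independent test of the lowered genes as a list. Of 252 tested, 62 (24.6%) were called, 49 of them higher (19.4%) and 13 lower (5.16%) in Taurine MDMs. Over all 11986 genes tested after LPS, 7.35% were called, with 3.26% higher and 4.09% lower in Taurine. The count depends on the filter: 102 lowered genes did not reach 1 CPM in 4 of the LPS treated libraries, and 17 of the 252 passed it in the 4 Taurine libraries alone and 1 in the 4 Indicine libraries alone, so that these 18 had to differ. Those 18 genes include 17 of the 62 calls. Among the 234 lowered genes at 1 CPM in at least 1 library of each breed, 45 were called (19.2%), 33 higher and 12 lower in Taurine, against 6.05% of all such genes. Without animal 3, 104 of 285 lowered genes were called (36.5%, against 7.99% of all genes), without animal 2, 48 of 290 (16.6%, against 5.81%), and without animals 3, 5 and 6, 67 of 307 (21.8%, against 5.77%). These fits also used a lower filter, 1 CPM in 3 libraries with 1 animal left out and fewer without animals 3, 5 and 6. Animal and filter thus changed together. DESeq2 called 120 of 354 (33.9%, against 7.52%), edgeR's exact test called 84 of 252 (33.3%, against 9.36%), and the quasi-likelihood test without a filter called 96 of 354 (27.1%, against 6.15%). The 7.52% and 6.15% are shares of 18770 genes with any count. The lowered genes had all passed a CPM filter, so these 2 comparisons are between unlike sets. With all 354 lowered genes tested in 1 model over the 16 libraries, 36 were called (10.2%), 27 higher and 9 lower in Taurine, against 5.68% of 12968 genes. The values after LPS of the lowered genes did not overlap between the breeds for 106 of 354 (29.9%), 89 of them higher and 17 lower in Taurine, against 16.1% of all 12968 genes. At an unadjusted p under 0.05 were 112 of the 252 (44.4%), against 21% of all genes tested.

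The calls are given here by the sets formed at rest, which is again a description, and no test compared the sets. Over all genes tested after LPS, 7.35% were called, 3.26% higher and 4.09% lower in Taurine. All 43 calls among the 109 tested of the 176 genes were higher in Taurine, a direction that the filter fixed in part and that the rule favours through animals 3, 5 and 6, as described for the levels of this set. Among the 95 of these genes at 1 CPM in at least 1 library of each breed, 29 were called, all higher in Taurine, against 6.05% of all such genes. Without a filter 75 of the 176 were called, all higher, against 6.15% of all genes with any count. Of the 119 tested of the 152 genes, 14 were called, 6 of them higher in Taurine, and of the 24 tested of the 26 genes, 5 were called and 0 were higher. The 62 were chosen on their values after LPS, so the sizes of their differences at rest and after LPS are not compared. Over the same 354 lowered genes, fitted without a filter, the median log2 fold change of Taurine relative to Indicine was 0.66 at rest and 0.85 after LPS, against 0.06 and 0.04 over all genes with any count. The median after LPS was 0.54 over the 252 genes that passed the filter. Without animals 3, 5 and 6 it was 0.14 at rest over 353 genes and 0.73 after LPS over the 307 genes that passed the filter there.

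ENSBTAG00000016026 had the highest log2 fold change between the breeds after LPS among the called genes without overlap. It was read at 19.7, 1.94, 21.7 and 5.15 CPM after LPS in Taurine animals 1, 3, 20 and 50 and at 0, 0.112, 0.266 and 0 CPM in Indicine animals 2, 5, 6 and 7. All 4 Taurine values lay above all 4 Indicine values, so that the gene passed the filter through the Taurine libraries alone and had to differ in that fit. Fitted by edgeR without a filter, the difference was 6.79 ± 0.99 (SE) on the log2 scale (adjusted p = 0.00111), a size that depends on the prior count since the Indicine libraries were at or near 0. At rest it was read at 34.1, 0.738, 48.7 and 23.5 CPM in the same Taurine and at 41.7, 0.249, 0.407 and 5.44 CPM in the same Indicine animals, where the breeds overlapped (log2 difference 1.18 ± 1.42 SE, adjusted p = 0.78 by edgeR). Its d was -6.40 in animal 2 and 0.98 in animal 3.

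ENSBTAG00000002885 had, by the same choice, the largest difference in the other direction. After LPS it was read at 327, 391, 367 and 327 CPM in Indicine animals 2, 5, 6 and 7 and at 51.1, 72.2, 20.2 and 26.1 CPM in Taurine animals 1, 3, 20 and 50. The Taurine values were lower without overlap, by a log2 difference of -3.13 ± 0.36 (SE) with an adjusted p of 0.00106 in edgeR. At rest the Indicine values were 281, 499, 546 and 376 CPM and the Taurine values 128, 228, 149 and 281 CPM, with a log2 difference of -1.19 ± 0.34 (SE) and an adjusted p of 0.242 in edgeR. In animal 2 the gene was at a d of 0.22, and in Taurine animals its loss was as large as -3.40.

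**Figure D5:**
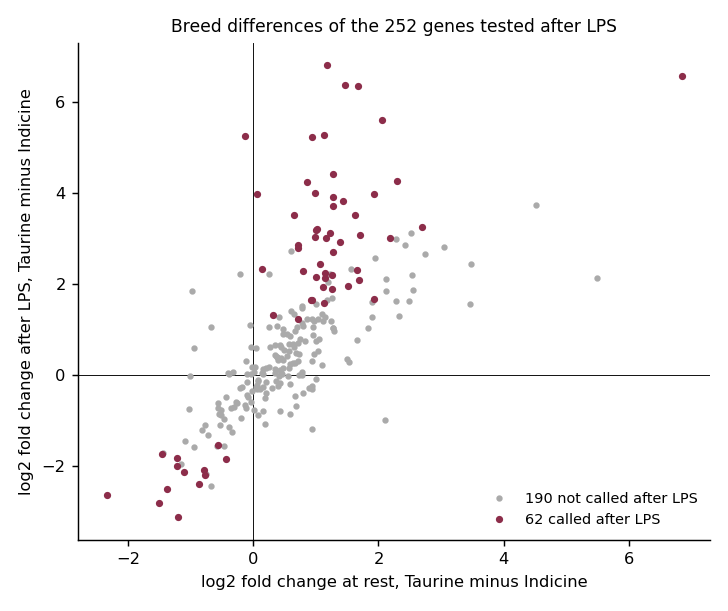
Log2 fold change of Taurine relative to Indicine MDMs at rest (horizontal) and after LPS (vertical) for the 252 lowered genes tested after LPS, with the 62 called after LPS in dark red and the other 190 in grey. The coloured genes were picked by their vertical value, so their place along that axis is no result, and 49 of them lie above and 13 below 0 after LPS.

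The other genes described in either direction by the same rule gave further patterns. The second gene higher in Taurine after LPS was read at 9.69, 312, 9.13 and 127 CPM at rest in Taurine animals 1, 3, 20 and 50 and at 0.611, 2.37, 0.136 and 0.725 CPM in Indicine animals 2, 5, 6 and 7, and at 3.98, 36.6, 1.99 and 64.2 CPM against 0, 0.895, 0.133 and 0 CPM after LPS. Its breeds were apart both at rest and after LPS, with log2 differences of 6.84 ± 1.47 (SE, adjusted p = 0.13) at rest and, fitted without a filter, 6.54 ± 1.26 (SE, adjusted p = 0.00709) after LPS in edgeR. The next 3 had log2 differences after LPS of 6.35, 6.33 and 5.57 without a filter and were low at rest in animals 3, 5 and 6. All 5 genes described as higher in Taurine passed the filter through the Taurine libraries alone, so for them the filtered fit is no test. The next 4 genes lower in Taurine had log2 differences after LPS of -2.82, -2.63, -2.41 and -2.20, and the first of these 4 passed the filter through the Indicine libraries alone.

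The median size of the loss was compared between the breeds. The mean d over the 4 animals of a breed had a median of -1.35 in Taurine and of -1.31 in Indicine MDMs over the lowered genes, and of -0.20 and -0.16 over all genes. Without animals 3, 5 and 6 it was -1.55 in the 3 Taurine and -1.68 in the 2 Indicine animals, and the median of the fitted breed difference in response (Taurine minus Indicine, log2) went from 0.05 with all animals to 0.48, against -0.01 and 0.09 over all genes. With all 8 animals the mean d was at most -1 in both breeds for 226 genes, in Taurine alone for 70 and in Indicine alone for 58, and it was the more negative in Taurine for 178 of the 354. A breed difference in the LPS response was called for 0 of the 354 lowered genes by edgeR in 1 model with 4 groups, with 0 called of all 12968 genes (0%), and 17 lowered genes (4.80%) had an unadjusted p under 0.05 against 1.92% of all genes. With the animal as a block, 0 lowered genes were called, 76 had an unadjusted p under 0.05 (21.5%, against 8.28% of all genes) and the lowest adjusted p among them was 0.332. DESeq2 called 0 of the lowered genes and 2 genes in all. In it, 34 lowered genes (9.60%) had an unadjusted p under 0.05, against 1.9% of 20045 genes with any count, a wider set than the filtered genes. Without animals 3, 5 and 6, edgeR called 11 of 354 lowered genes (3.11%, against 0.551% of all genes), all 11 with the smaller loss in Taurine. That fit compares 3 Taurine with 2 Indicine animals that were kept for their resting values. The rule asks for 7 of 8 animals below 0 and so limits how far the breeds could differ among the lowered genes, and an adjusted p above the threshold does not show that the breeds responded alike.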

How the data were processed

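Raw gene counts were deposited as whole numbers. The authors obtained these counts from paired-end reads with STAR 2.6.0c and HTSeq 0.10.0. The deposited files hold them without normalization and before the filter on CPM that the authors applied in their own contrasts (27607 Ensembl genes and 5 counters of reads not given to a gene). The submitters' processing notes name the build UMD3.1 and the paper's methods name ARS-UCD1.2, which was not resolved, and whether HTSeq counted by strand is not given in the sources used here. All 5 counters were left out of all totals. With the counter of alignments that were not unique set aside, the remaining counters made up 18.4% to 23.2% of what was counted in a library.

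Breed, stimulus and animal were taken from the labels. CPM were computed on the sum of gene counts without further scaling, and resting level, spread and d were computed from log2(CPM + 0.5). Breed contrasts were fitted in R 4.3.3 with edgeR 4.0.16 (TMM, glmQLFit, glmQLFTest) on the 8 libraries of a stimulus, for genes that reached 1 CPM in 4 or more of them. The response was fitted over all 16 libraries, and DESeq2 1.42.0 was an alternative, as were other scalings, pseudocounts and filters, edgeR's exact test, 1 model for all libraries and leaving out each animal. Fits that left out 1 animal asked for 1 CPM in 3 libraries instead of 4, and the fit without animals 3, 5 and 6 asked for fewer. Leaving out animals 3, 5 and 6 together and counting calls only among genes at 1 CPM in both breeds are alternatives chosen later, with these values known. The SE of a log2 fold change was its size over the root of its F statistic. The fits were tested on simulated data. Same-numbered libraries come from the same animal. Their deviations from the group means correlated over genes with r between 0.645 and 0.822 in Taurine and between 0.054 and 0.303 in Indicine animals. Summaries used Python 3.11.15, and figures were drawn with matplotlib 3.10.9.

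The lowered genes, lists and tests were chosen with earlier results of these data known. Described singly were the 10 genes with the most negative mean d, the 5 with the highest resting CPM, up to 5 called genes per direction and breed contrast without overlap, and the 3 nearest genes on each side of the threshold, with at most 2 identifiers printed for loss and 1 per direction for breed. The planned lists of macrophage genes and cell type markers were not analysed, since the reference table of ARS-UCD2.0 (37063 genes) matched 0 identifiers.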

Additional observations from a re-analysis of the deposited data

Results flagged for a closer look

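Within each group of 4 libraries, a value was singled out when its gap to the nearest of the other 3, divided by the range of the group, passed Dixon's 95% critical value for 4 samples. Among 78 groups examined, from the genes described singly and the per-animal summaries of the lowered genes, 10 values were singled out. Chance singles out about 1 in 20 groups of independent values, a rate that does not apply here, since the genes were chosen for extreme loss and share libraries. All are on the log2(CPM+0.5) scale.

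In 6 of the 10 the library apart was that of Taurine animal 3. At rest it lay low for ENSBTAG00000034373 (-1, with the other Taurine libraries between 3.71 and 4.46), for the gene in the fourth place by loss (0.45, against 6.21 to 6.89), for that in the fifth (2.96, against 7.02 to 7.15) and for that in the eighth (2.96, against 8.97 to 9.41). After LPS it lay high for ENSBTAG00000000604 (5.75, against 0.84 to 1.34) and for the gene in the sixth place (1.12, against -0.74 to -0.67).

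The other 4 were in LPS treated Indicine libraries that were near or at 0 counts. Animal 2 lay high for ENSBTAG00000034373 (-0.71, with the other libraries at -1) and for the gene in the third place by loss (-0.26, against -0.71 to -0.66). Animal 5 lay high for the gene in the seventh place (-0.71) and animal 6 for that in the ninth (-0.66), each with the other libraries at -1, which is the value of 0 counts. In these 2 and in ENSBTAG00000034373 a single count passes the criterion by construction.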

How the results depend on the processing

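Leaving out each animal in turn gave between 308 and 650 lowered genes, the higher counts being 612 without animal 5 and 650 without animal 3. A pseudocount of 2 CPM gave 194 genes and asking for 8 of 8 animals gave 197. The other alternatives for this count (TMM scaling, DESeq2 size factors, a pseudocount of 0.1 CPM, no filter, a filter at 8 libraries, either breed alone) stayed within 1.5 times of 354. Without animals 3, 5 and 6, an alternative added after the data were seen, the rule gave 1053 genes. Genes were chosen again under each alternative, so the rule itself holds their median loss (between -1.63 and -1.28) below -1. Their median resting level was 4.55 with a pseudocount of 2 CPM against 3.05, and their median spread at rest lay between 0.74 and 1.52 against 1.19. At rest, DESeq2 called 17 lowered genes between the breeds, the exact test of edgeR called 11, the 1 model over all 16 libraries called 3 and leaving out an animal between 0 and 1 (1 without animal 5 and 1 without animal 50). After LPS, DESeq2 called 120 of 354, no filter gave 96 of 354, the 1 model over all 16 libraries gave 36 of 354 and leaving out an animal between 48 and 104, the last without animal 3, against 62 of 252. Fits that left out an animal also lowered the filter to 3 libraries, and each tested more than 252 lowered genes. The cause was not tested for any of these. For the response, 12 alternatives called 0 lowered genes and the fit without animals 3, 5 and 6 called 11. The 12 include the fit with the animal as a block (replicate block: 0), so the block changed no call. The log2 differences between the breeds after LPS of ENSBTAG00000016026 and ENSBTAG00000002885 had the same sign and were called in the 14 alternatives of each, with adjusted p between 9.15e-09 and 0.0408 and between 4.15e-16 and 0.00459. For ENSBTAG00000016026 this says nothing of stability where the filter read LPS treated libraries only, since it passed there through the Taurine libraries alone. The filter of the 1 model over all 16 libraries also read the unstimulated libraries, and the adjusted p in that edgeR fit was 0.0408. At 7.36 to 10.3 counts per CPM, differences among genes under 1 CPM rest on few counts, which limits the 102 lowered genes not tested after LPS.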

Other observations

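The lowered genes had their highest unstimulated value in Taurine animal 50 for 110 genes, in Taurine animal 3 for 91, in Taurine animal 20 for 54, in Indicine animal 2 for 51, in Taurine animal 1 for 19 and in Indicine animals 7, 5 and 6 for 15, 10 and 4. The lowest unstimulated value fell in Indicine animal 6 for 97 genes, in Taurine animal 3 for 79, in Indicine animal 5 for 65, in Taurine animal 1 for 64 and in Taurine animals 20 and 50 for 31 and 12, and in Indicine animals 2 and 7 for 3 each. Taurine animal 3 was thus often at either end. Its unstimulated library held the largest share of counts on the lowered genes, 3.27%, of which 2.61% of all gene counts lay on the 152 genes between the other sets and 0.124% on the 176 genes that were low at rest in animals 3, 5 and 6.

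After LPS, the 176 genes took 0.113% of the gene counts in Taurine animal 3 and 0.0775% in Indicine animal 5, against 0.124% and 0.152% of them at rest. In Indicine animal 2 their share was 0.851% at rest and 0.0717% after LPS.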
